A study of Mus musculus with 6 samples.

Results

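The Hox genes encode homeodomain transcription factors that give cells along the head-to-tail axis their positional identity. In the mouse they lie in 4 clusters, HoxA to HoxD, on chromosomes 6, 11, 15 and 2, and the genes of a cluster carry paralog numbers from 1 at the anterior end to 13 at the posterior end. Members were the array probes whose accession maps to a protein-coding mouse gene named Hoxa, Hoxb, Hoxc or Hoxd plus a number, with antisense and opposite-strand transcripts left out. This gave 39 genes and 46 probes out of 23462 gene symbols and 56605 probes on the array. HoxA holds 11 of the genes, HoxB 10, HoxC 9 and HoxD 9.

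Colonic epithelium was taken from 6 male mice, 3 wild-type and 3 knockout for the microRNA miR-31, and the RNA of each mouse was read on its own single-colour Agilent array with the dye Cy3. Per the labels the tissue was flow separated into TRIzol and total RNA was used. The sorting gate, colon region, strain, age and knockout method are not given in the sources used here. No probe was matched to the miR-31 gene itself, so the deletion was not checked on these arrays.

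Hox genes are switched on in the order in which they lie, anterior genes first, and the posterior paralogs with numbers 9 to 13 are the ones known for the hindgut. Cdx proteins act upstream of them in the gut, Pbx and Meis proteins bind DNA together with them, and Polycomb and Trithorax complexes hold their off and on states in adult tissue. Hoxb13 is known as a mark of the distal colon and rectum, and Hoxd13 and Hoxa13 as genes needed to form the hindgut and its outlet.

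The sequences that follow show the microRNA the knockout mice lack, which is made from chromosome 4, with its seed (bases 2 to 8) in capitals. They are taken from RefSeq on the build GRCm38.p6, where miR-31-5p lies at chr4:88910614-88910635 and miR-31-3p at chr4:88910577-88910599, both on the minus strand.
mmu-miR-31-5p: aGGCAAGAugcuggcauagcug
mmu-miR-31-3p: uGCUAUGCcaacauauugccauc

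The RefSeq promoter table held windows for 22 of the 39 Hox genes, 24 windows in all, and 3 of them are printed here, each over the 250 bases upstream of a start site. Hoxb8 is shown because it was the Hox window with the most matches to TTTATNG, the core recognised by Cdx and posterior Hox proteins. Hoxd8 and Hoxd9 are shown because they are neighbours on chromosome 2 whose fitted differences, knockout minus wild-type, had opposite signs. The value of Hoxd9 rests on knockout spots not well above background. In Hoxb8 (chr11:96281655-96281904, plus strand) the capitals mark TTTATNG and TGATNNAT, a composite site of Hox and Pbx proteins, searched on both strands.
Hoxb8: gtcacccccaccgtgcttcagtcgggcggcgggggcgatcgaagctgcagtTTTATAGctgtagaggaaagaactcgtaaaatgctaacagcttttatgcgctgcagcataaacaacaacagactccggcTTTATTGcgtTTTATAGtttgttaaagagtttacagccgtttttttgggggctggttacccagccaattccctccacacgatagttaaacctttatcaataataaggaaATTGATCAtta
In Hoxd8 (chr2:74704365-74704614, plus strand) and Hoxd9 (chr2:74697513-74697762, plus strand) the capitals mark CG dinucleotides, which are dense where Polycomb complexes gather.
Hoxd8: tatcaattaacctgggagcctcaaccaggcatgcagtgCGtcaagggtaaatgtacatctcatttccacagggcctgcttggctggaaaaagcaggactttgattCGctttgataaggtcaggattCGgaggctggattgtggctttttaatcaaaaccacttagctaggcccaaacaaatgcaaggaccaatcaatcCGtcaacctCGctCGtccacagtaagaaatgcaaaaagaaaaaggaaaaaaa
Hoxd9: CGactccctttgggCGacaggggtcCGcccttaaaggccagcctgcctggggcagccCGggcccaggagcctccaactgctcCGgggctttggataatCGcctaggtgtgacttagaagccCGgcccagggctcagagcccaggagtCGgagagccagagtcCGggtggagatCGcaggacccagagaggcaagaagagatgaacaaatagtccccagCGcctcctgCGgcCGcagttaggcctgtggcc
Hoxd8 held 6 CG dinucleotides and Hoxd9 held 13, against a median of 12.5 over the Hox windows and 6 over all 32851 windows of the table. Of the other tested HoxD genes, Hoxd3 (12) and Hoxd4 (3) had positive differences. Those with negative differences were Hoxd10 (20), Hoxd11 (2 and 20 in its 2 windows) and Hoxd12 (10). TTTATNG was found in 2 of the 24 Hox windows (8.33%), those of Hoxb8 and Hoxd4, and in 9.81% of all windows. TGATNNAT was found in 4 Hox windows (16.7%), those of Hoxa2, Hoxb1, Hoxb8 and Hoxd11, and in 7.68% of all windows. These matches describe the letters of the windows and were not tested against the array values.

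Levels are given as log2 of the deposited processed intensity minus the 75th percentile of the array, so that a level of 0 is the 75th percentile. A difference is knockout minus wild-type on that log2 scale, with its standard error (SE) from limma. A spot counts as detected where the scanner software called it well above background. The array signal at the 75th percentile lay between 3005 and 3539, between 66.6% and 75.6% of probes were detected per array, and correlations between arrays over all probes lay between 0.979 and 0.989. All 15 colon epithelium markers, among them Epcam, Vil1 and Cdx1, were detected on all 6 arrays. The 3 wild-type arrays lay in one row of the slide and the 3 knockout arrays in another, so row and genotype cannot be told apart. Nothing in the labels ties the mice by litter or day, and p-values measure the spread between these 6 mice.

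The colonic epithelium samples held transcripts of most of the HoxA, HoxB and HoxD clusters and of few HoxC genes. Which cells of a sample held them was not tested. Of the 39 genes, 29 were detected on all 6 arrays, 3 on some arrays and 7 on none. HoxA was detected throughout, with 11 of 11 genes on all arrays. HoxB was detected in 9 of 10 genes, and its missing member was Hoxb1, a gene best known for the hindbrain. HoxC was the exception, with only Hoxc5 and Hoxc9 of its 9 genes detected on all arrays. Hoxc4, Hoxc6, Hoxc10, Hoxc11 and Hoxc13 were not well above background on any array, Hoxc8 was detected on knockout array 3 alone and Hoxc12 on knockout array 1 alone. In HoxD, 7 of 9 genes were detected on all arrays and Hoxd1 on none.

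Detection differed little between the genotypes. The number of detected Hox genes was 30 on each wild-type array, and 30, 29 and 31 on knockout arrays 1 to 3. Hoxd9 was the member whose detection followed the genotype most: it was well above background on all 3 wild-type arrays and on knockout array 3, and not on knockout arrays 1 and 2. By paralog number, 6 of the 8 genes numbered 1 to 3 were detected on all arrays, as were 12 of the 15 numbered 4 to 8 and 11 of the 16 numbered 9 to 13. Levels of different Hox genes are not ranked here, since each is read by a probe of its own.

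**Figure D1:**
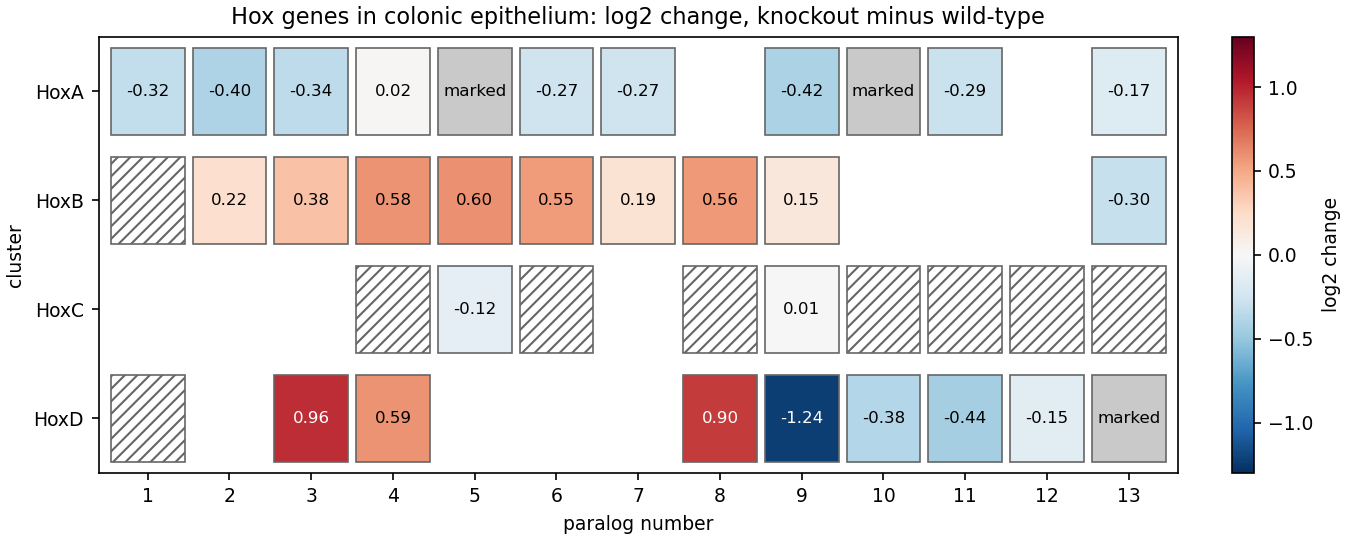
Map of the 39 Hox genes, with cluster in rows and paralog number in columns. The colour and number give the log2 difference, knockout minus wild-type, of the 27 genes tested; grey boxes are 3 genes lost to marked spots, hatched boxes are 9 genes detected on fewer than 3 arrays, and a blank place holds no gene. The value of Hoxd9 includes 2 knockout spots not above background and is no measured size. Blue boxes run along HoxA, red boxes along HoxB from Hoxb2 to Hoxb9, and HoxD turns from red to blue between Hoxd8 and Hoxd9.

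Of the 30 Hox genes detected on at least 3 arrays, 27 could be tested. Hoxa5, Hoxa10 and Hoxd13 lost too many spots that the scanner software had marked as uneven, and 9 dim genes did not enter. No Hox gene passed the threshold of an adjusted p of 0.05 (limma with Benjamini-Hochberg adjustment over 27916 features), where 0.208% of all features passed (0.147% with a positive and 0.0609% with a negative difference), and the smallest adjusted p was 0.380 (Hoxb6). At an unadjusted p under 0.05, with no adjustment, limma gave 7 of 27 Hox genes (25.9%), against 10.7% of all features. Of these, 5 had a positive difference (18.5%, against 3.18% of all features) and 2 a negative one (7.41%, against 7.55%). The 3 knockout values and the 3 wild-type values did not overlap for 8 Hox genes (29.6%), against 18.0% of all features. A difference of at least 0.5 either way was seen in 8 Hox genes (29.6%), against 10.7% of all features. Hoxd9 is counted among the 2 negative genes and among the 8 with a difference of at least 0.5. It was tested because its wild-type spots were detected, and its values in knockout mice 1 and 2 come from spots not well above background. Hoxb3, counted among the 5 positive genes and the 8 without overlap, was read at a low level.

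Over all 27 genes the median difference was -0.12, close to the -0.06 of all features, with 13 genes above 0 and 14 below. Above 0 were thus 48.1% of the Hox genes and 38.5% of all features. The values were laid out by cluster and position. In HoxA, 8 of 9 tested genes lay below 0, and the median was -0.29. In HoxB, all 8 tested genes from Hoxb2 to Hoxb9 lay above 0, with a median of 0.47, and Hoxb13 lay below. In HoxD, Hoxd3, Hoxd4 and Hoxd8 lay above 0, with a median of 0.90, and the 4 tested genes from Hoxd9 to Hoxd12 lay below, with a median of -0.41. Hoxd9 enters here, and among the paralogs 9 to 13, with knockout 1 and 2 spots not well above background. By paralog number the median was -0.05 over the 6 tested genes numbered 1 to 3, 0.55 over the 11 numbered 4 to 8, of which 8 lay above 0, and -0.29 over the 10 numbered 9 to 13, of which 8 lay below. These counts describe 3 mice against 3, and neighbouring Hox genes are not independent measurements.

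**Figure D2:**
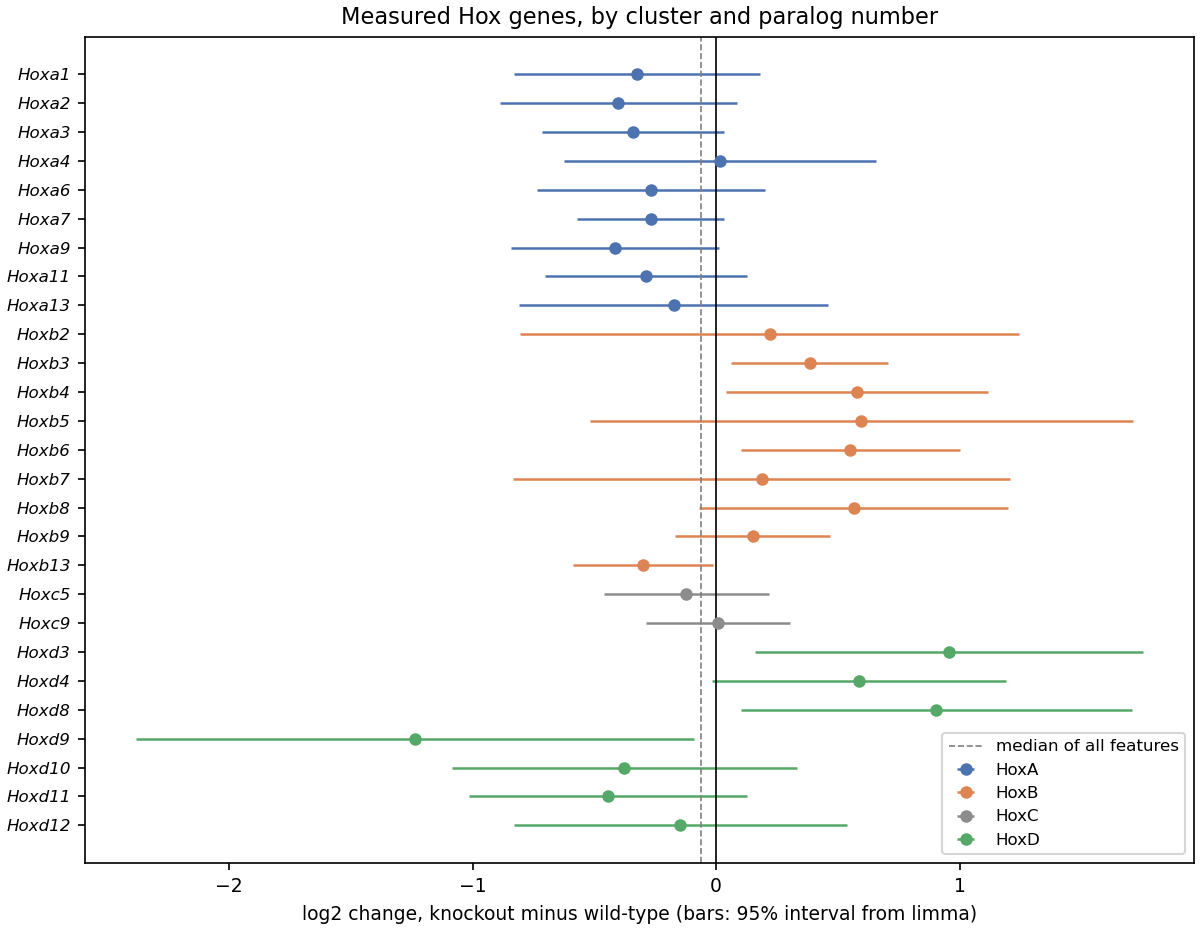
Log2 difference, knockout minus wild-type, of each of the 27 tested Hox genes, with the 95% interval from limma as bars and the cluster as colour; the dashed line is the median of all features at -0.06. The intervals of Hoxb3, Hoxb4, Hoxb6, Hoxd3 and Hoxd8 lie above 0 and those of Hoxb13 and Hoxd9 below, and none of these 7 genes passed after adjustment. The interval of Hoxd9 includes 2 knockout spots not well above background and gives no measured size.

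The anterior and middle HoxD genes had positive differences, and those of Hoxd3 and Hoxd8 were the 2 largest among the 27 genes. Hoxd3, an anterior paralog, had levels of -3.70, -4.05 and -2.89 in wild-type mice 1 to 3 and of -2.50, -2.21 and -3.06 in knockout mice 1 to 3. Wild-type 3 lay above knockout 3, so the groups overlapped, and the difference was 0.96 ± 0.34 (SE, n = 3 and 3, limma adjusted p = 0.389). Hoxd4 had levels of -1.64, -1.47 and -0.74 in wild-type and of -0.75, -0.44 and -0.89 in knockout mice. Its difference was 0.59 ± 0.25, and again wild-type 3 lay among the knockouts. Hoxd8 had levels of -2.74, -2.78 and -1.75 in wild-type and of -1.60, -1.03 and -1.92 in knockout mice. Its difference was 0.90 ± 0.34, and the array's other Hoxd8 probe gave 0.77 ± 0.49. In all 3 genes wild-type mice 1 and 2 were the lowest pair and knockout 2 was the highest.

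From Hoxd9 to Hoxd12 the fitted differences lay below 0. Hoxd9, the first of the posterior HoxD genes, had levels of -5.26, -5.88 and -5.28 in wild-type and of -6.45, -7.84 and -5.84 in knockout mice. The values of knockout mice 1 and 2 come from spots not well above background and are no more than bounds, and the gene was tested because its wild-type spots were detected. Its fitted difference of -1.24 ± 0.48 (limma adjusted p = 0.432) therefore gives no measured size. The negative sign is favoured by that way of entry and is not taken as a result. The fitted value was -0.38 with the normexp background correction and -0.67 without knockout 2. Among the 4 arrays that detected Hoxd9, wild-type 2 lay just below knockout 3. Hoxd10 had levels of -2.27, -2.52 and -1.55 in wild-type and of -2.12, -2.91 and -2.43 in knockout mice, a difference of -0.38 ± 0.30. Hoxd11 had levels of -2.72, -3.05 and -2.43 in wild-type and of -2.77, -3.55 and -3.22 in knockout mice, a difference of -0.44 ± 0.24. In both genes wild-type 3 was the highest mouse and knockout 2 the lowest, and without wild-type 3 the differences were -0.10 and -0.29, without knockout 2 -0.16 and -0.26. Hoxd12 had levels of -3.55, -3.76 and -2.68 in wild-type and of -3.45, -3.72 and -3.26 in knockout mice, a difference of -0.15 ± 0.29 that rests on wild-type 3 and was 0.18 without it. Hoxd13, the last gene of the cluster, was marked as uneven on 3 of 6 arrays and was not tested. With marked spots kept, its difference was -0.09 ± 0.18.

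In HoxB the larger values were those of Hoxb4, Hoxb5, Hoxb6 and Hoxb8. Hoxb4 had levels of -1.78, -1.97 and -1.33 in wild-type and of -1.48, -0.92 and -0.94 in knockout mice, a difference of 0.58 ± 0.23. Hoxb6 had levels of -0.30, 0.01 and 0.35 in wild-type and of 0.39, 0.71 and 0.61 in knockout mice. All 3 knockout values of Hoxb6 were above all wild-type values, and the difference was 0.55 ± 0.19 (limma adjusted p = 0.380). Hoxb8 had levels of -0.79, -0.55 and 0.17 in wild-type and of -0.13, 0.33 and 0.32 in knockout mice, a difference of 0.56 ± 0.27, with 0.75 ± 0.31 from its other probe. Here wild-type 3 again lay inside the knockout range. Hoxb5 was read on 2 arrays a group, at -1.41 and -0.19 in wild-type mice 1 and 3 and at -0.40 and -0.01 in knockout mice 1 and 3, which gave 0.60 ± 0.43. Hoxb3 had levels of -5.65, -5.51 and -5.26 in wild-type and of -5.10, -5.11 and -5.05 in knockout mice, a difference of 0.38 ± 0.14 with no overlap, and of 0.11 with the normexp background correction. The array's other Hoxb3 probe, marked on 5 of 6 arrays, gave -0.04 ± 0.27 with marked spots kept, so the 2 probes of this gene disagree. Hoxb2, Hoxb7 and Hoxb9 had differences of 0.22 ± 0.43, 0.19 ± 0.40 and 0.15 ± 0.13, and Hoxb7 was read on 2 arrays a group. The other Hoxb9 probe, marked on all 6 arrays, gave -0.08 ± 0.17 with marked spots kept.

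Hoxb13, the posterior end of HoxB, differed from the rest of its cluster in sign. It had levels of 3.14, 3.06 and 2.88 in wild-type and of 2.77, 2.67 and 2.75 in knockout mice. All 3 knockout values lay below all wild-type values, and the difference was -0.30 ± 0.12 (limma adjusted p = 0.450). Hoxa13, the posterior end of HoxA, had levels of 0.28 and -0.36 in wild-type mice 1 and 3 and of 0.12, -0.40 and -0.35 in knockout mice. Its difference was -0.17 ± 0.26 with overlapping groups. It was -0.42 with marked spots kept, -0.34 without knockout 1, -0.08 without knockout 2 and -0.10 without knockout 3.

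**Figure D3:**
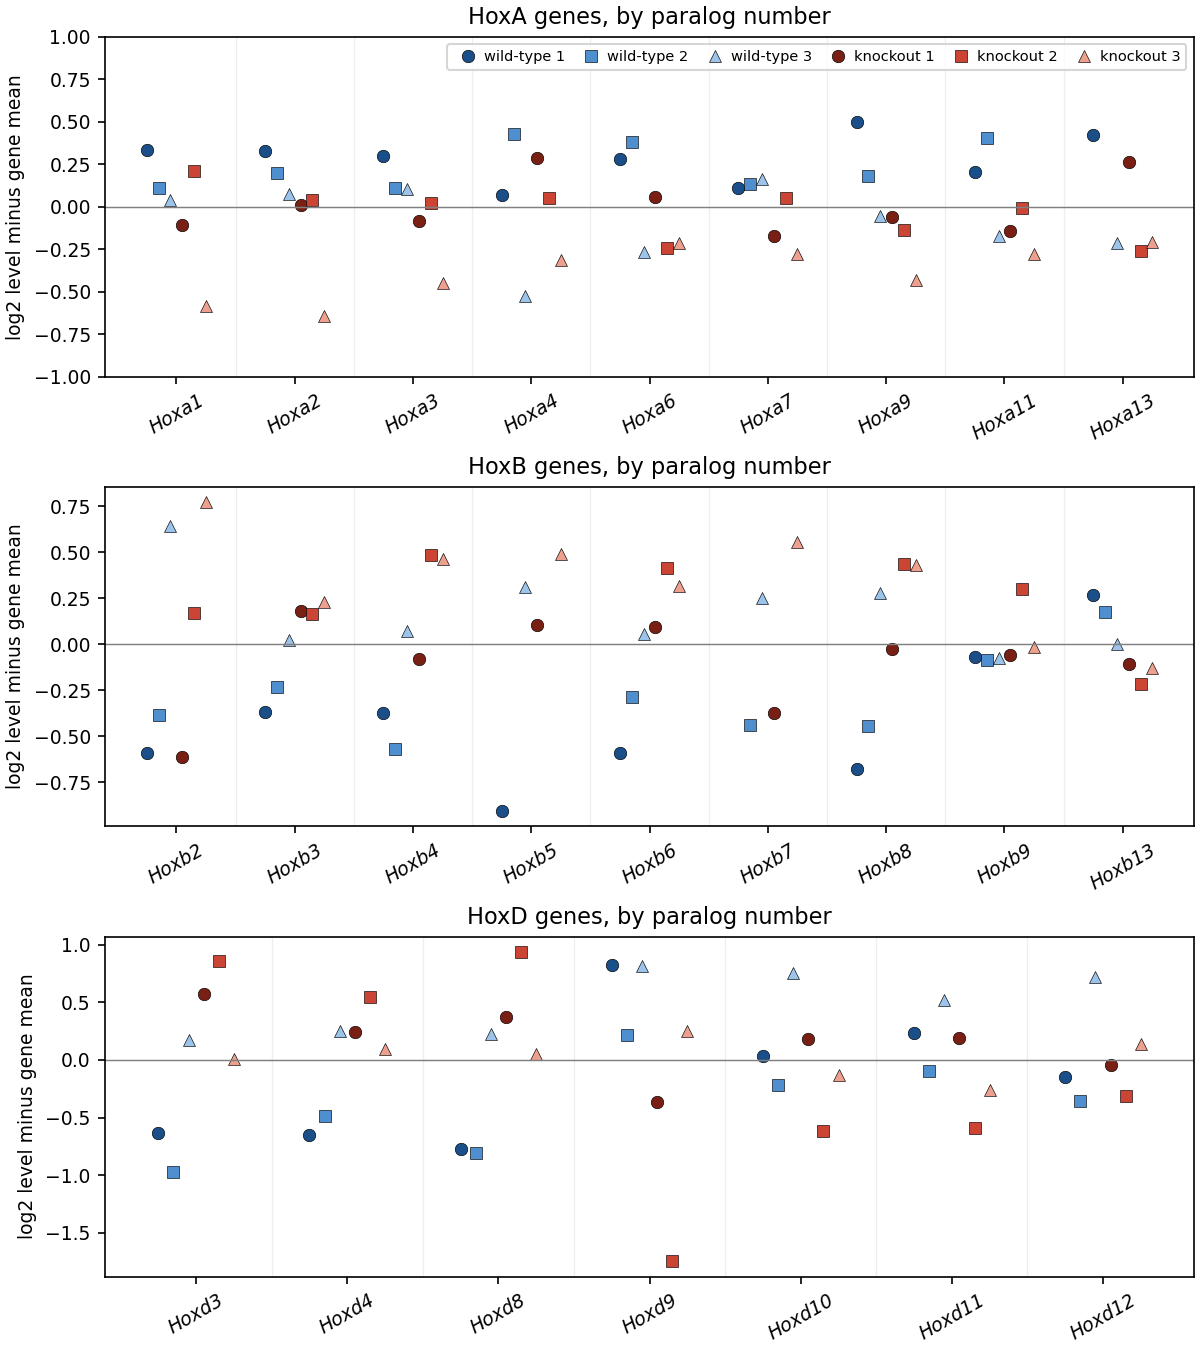
Log2 level of each tested HoxA, HoxB and HoxD gene on each array, minus the mean of the gene over its arrays, with genes ordered by paralog number from anterior (left) to posterior (right); blue symbols are the 3 wild-type and red symbols the 3 knockout mice, and a missing symbol is a marked spot. Wild-type mice 1 and 2 lie low in most genes from Hoxb2 to Hoxb8 and in Hoxd3, Hoxd4 and Hoxd8, while wild-type 3 lies near or among the knockouts there.

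HoxA differences were smaller and mostly of the other sign, with no member at an unadjusted limma p under 0.05. They ran from -0.42 (Hoxa9) to 0.02 (Hoxa4), with SEs between 0.13 and 0.27. In Hoxa2, Hoxa3, Hoxa7 and Hoxa9 all 3 knockout values lay below all wild-type values. The other Hoxa9 probe gave -0.68 ± 0.21, whereas the other Hoxa3 probe gave 0.02 ± 0.16 against -0.34 ± 0.16. With marked spots kept, Hoxa5 gave -0.31 ± 0.29 and the probes of Hoxa10 gave -0.53 ± 0.26 and -0.32 ± 0.32. The 2 tested HoxC genes, Hoxc5 and Hoxc9, gave -0.12 ± 0.14 and 0.01 ± 0.13.

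How far single mice carry the pattern can be read from the median level of a group of genes on each array, each gene centred on its own mean. For Hoxb2 to Hoxb9 the medians were -0.59, -0.38 and 0.16 in wild-type and -0.04, 0.36 and 0.45 in knockout mice 1 to 3. For Hoxd3, Hoxd4 and Hoxd8 they were -0.65, -0.81 and 0.22 in wild-type and 0.37, 0.86 and 0.05 in knockout mice. In both groups wild-type 3 stood apart from wild-type mice 1 and 2 and above at least 1 knockout. For Hoxd9 to Hoxd12 the medians were 0.13, -0.15 and 0.74 in wild-type and 0.06, -0.60 and 0.01 in knockout mice, with wild-type 3 highest and knockout 2 lowest. These medians include the Hoxd9 spots of knockout mice 1 and 2, which were not well above background. For HoxA they were 0.30, 0.19 and -0.05 in wild-type and -0.06, 0.02 and -0.31 in knockout mice, and wild-type 3 lay inside the knockout range.

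The count of Hox genes at an unadjusted limma p under 0.05 moved with the mice included. It was 7 of 27 with all mice, 11 of 24 without wild-type 3, 1 of 26 without wild-type 2 and 0 of 25 without wild-type 1. Leaving out knockout 1, 2 or 3 gave 4 of 25, 3 of 27 and 3 of 25. A fit with 1 mouse fewer has less power for every feature, and the share of all features at that p is not given for these fits. The count of all features called was 58 with all mice and 18 without wild-type 1. Without wild-type 1 the differences of Hoxd3 and Hoxb4 were 0.88 and 0.54. Those of Hoxb6, Hoxb8, Hoxd4 and Hoxd8 fell further, to 0.39, 0.37, 0.41 and 0.74. Of the tested genes from Hoxb2 to Hoxb9, 6 of 7 lay above 0 without wild-type 1 and 5 of 6 without knockout 3. The labels number wild-type mice 1 and 2 and knockout mice 1 and 2 closely together, and wild-type 3 and knockout 3 elsewhere, without saying what the numbers stand for. Within the 4 closely numbered mice the difference was 1.52 for Hoxd3, 0.96 for Hoxd4 and 1.44 for Hoxd8. Between the other 2 mice it was -0.17, -0.16 and -0.17 for the same genes. The split was the other way for Hoxd10 and Hoxd11, at -0.12 and -0.27 within the 4 mice and -0.88 and -0.79 between the other 2. Hoxb4, Hoxb6, Hoxb8 and Hoxb13 kept their signs in both sets, at 0.67 and 0.39, 0.70 and 0.26, 0.77 and 0.16, and -0.38 and -0.13.

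The slide columns give the same mice, since columns 1 and 2 each held 1 mouse of each genotype and wild-type 3 and knockout 3 lay in columns of their own. The difference of Hoxd3 was 1.21 in column 1 and 1.83 in column 2, and that of Hoxd8 1.14 and 1.74. With the column as a block, limma gave Hoxd3 a difference of 1.52 and an adjusted p of 0.0617. Over the 18 alternative settings tried for Hoxd3 its adjusted p was never lower than that, so no setting called it. The share of spots marked uneven also separated wild-type 3 (4.82%) and knockout 3 (7.36%) from the other 4 arrays (12.7% to 17.2%), and its part in the Hox values was not tested.

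**Figure D4:**
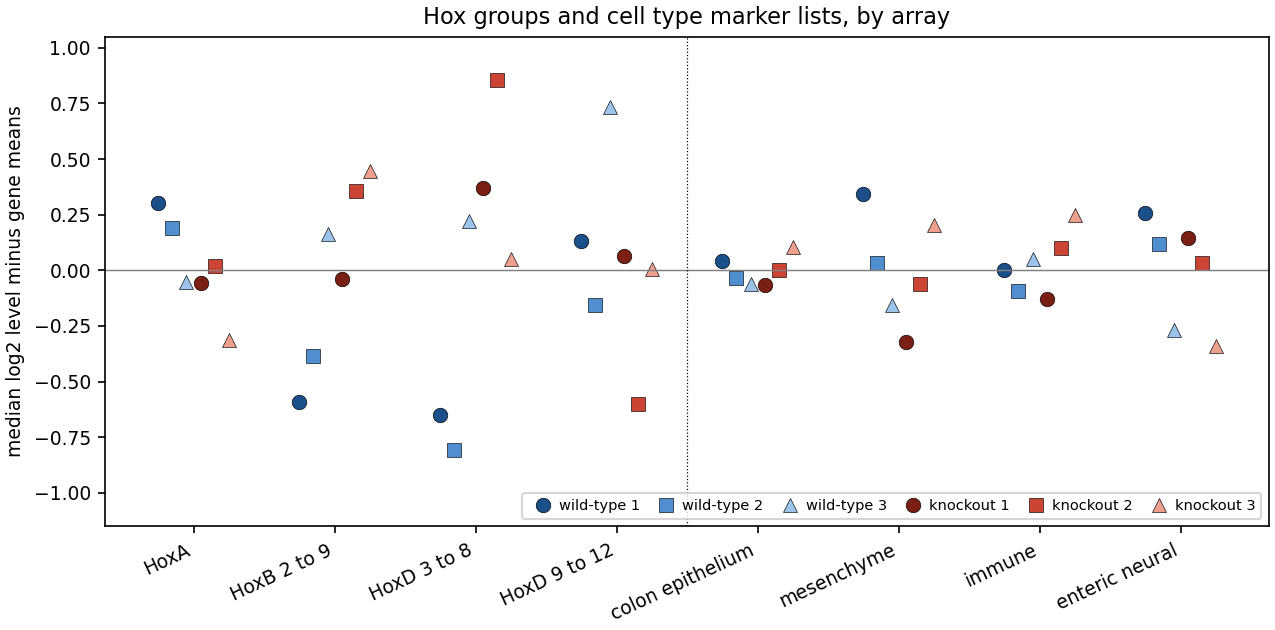
Median log2 level of 4 groups of Hox genes (left of the dotted line) and 4 lists of cell type markers (right) on each array, each gene centred on its own mean over the arrays; blue symbols are wild-type and red symbols knockout mice. Wild-type 3 lies apart from wild-type mice 1 and 2 in HoxB 2 to 9 and in both HoxD groups, and the epithelial list spans from -0.06 to 0.10.

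Hox genes are also expressed in mesenchyme, nerve and endothelium, so markers of those cells were laid beside them. In bulk RNA, fewer cells of a type and less RNA per cell cannot be told apart. Of 15 mesenchyme markers 12 were detected on all arrays, and Pdgfra on none. Their median centred level was 0.34, 0.03 and -0.16 in wild-type and -0.32, -0.06 and 0.20 in knockout mice, with wild-type 1 highest and knockout 1 lowest. Enteric neural and glial markers stood at 0.26, 0.12 and -0.27 in wild-type and 0.14, 0.03 and -0.34 in knockout mice. Wild-type 1 was highest and knockout 3 lowest, and Sox10 and S100b were not detected on any array. Of 6 endothelial markers, Cdh5, Kdr, Tek and Emcn were not detected on any array, and the median level ran from -0.25 to 0.19. Immune markers stood between -0.13 and 0.25. The part of these cells in the Hox differences was not tested. Of the 11 tested mesenchyme markers 3 had positive and 8 negative differences, with a median of -0.20, and 0 passed. The 4 of smallest p went both ways. Myh11, a smooth muscle myosin, gave -0.47 ± 0.12 (limma adjusted p = 0.264), Des -0.31 ± 0.18 and Cnn1 -0.30 ± 0.24. Col1a2, a collagen, gave 0.55 ± 0.37.

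The genes that work with or above the Hox genes gave no call either. Of the 9 Hox cofactor genes 7 were tested and 0 passed in either direction, with a median difference of -0.17; Meis1 was not detected on any array, and Meis2, detected on 5 of 6 arrays, gave -0.30 ± 0.13. Of 12 upstream and neighbouring regulators 9 were tested and 0 passed, with a median of -0.02. Cdx1, an intestinal homeobox regulator, gave -0.05 ± 0.10, and Cdx2, lost to marked spots, gave 0.03 ± 0.15 with those kept. Pdx1, which patterns the foregut, gave -0.70 ± 0.26, and Evx1 and Evx2, which flank HoxA and HoxD, gave -0.38 ± 0.21 and 0.43 ± 0.26. Cdx4 and Gsx2 were not detected. Of 17 retinoic acid genes on the array 15 were tested and 0 passed. Rarg, a retinoic acid receptor, had levels of -3.33, -3.53 and -3.15 in wild-type and of -2.93, -2.37 and -2.68 in knockout mice, a difference of 0.68 ± 0.18 with no overlap (limma adjusted p = 0.288). Cyp26b1, which breaks retinoic acid down, was detected on 3 of 6 arrays, so no difference is given. Rarb gave -0.29 ± 0.13 and Crabp1, a retinoic acid binding protein, -0.33 ± 0.16.

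All 22 Polycomb genes and all 11 Trithorax genes on the array were detected on all arrays. Of these, 17 and 9 were tested and 0 passed in either list, with medians of 0.02 and -0.02. The 4 Polycomb members with the smallest p were Phc1 (0.34 ± 0.15), Pcgf2 (0.40 ± 0.28), Cbx6 (0.28 ± 0.22) and Kdm2b (0.15 ± 0.12). In the Trithorax list Kmt2b, a histone H3 methyltransferase, gave 0.18 ± 0.13 and Men1, its partner, 0.11 ± 0.11.

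Genes read as marks of position along the gut did not pass. Of 5 distal colon markers, 4 were on the array, 3 were tested and 0 passed. Scnn1g, a subunit of the epithelial sodium channel, gave -0.95 ± 0.31 (n = 2 and 3, limma adjusted p = 0.378), with levels of -2.30 and -2.90 in wild-type mice 1 and 3 and of -3.71, -3.91 and -3.05 in knockout mice. Scnn1b, its partner subunit, gave 0.17 ± 0.15, and Aqp8, a water channel of the colon surface, -0.13 ± 0.14. Atp12a, a distal marker lost to marked spots, gave -0.16 ± 0.25 with those kept. The proximal colon markers Car1 and Aqp4 gave -0.03 ± 0.15 and -0.11 ± 0.18. Slc9a3, the remaining proximal marker, was lost to marked spots and gave -1.02 ± 0.41 with those kept (limma adjusted p = 0.460). Of 15 markers of stomach and small intestine 10 were tested and 0 passed. Tff2, a stomach trefoil peptide, had levels of -5.12, -4.86 and -5.03 in wild-type and of -3.48, -3.90 and -2.70 in knockout mice, a difference of 1.64 ± 0.29 (limma adjusted p = 0.135). Gata4 gave -0.65 ± 0.50 and Sis, an enzyme of the small intestine surface, 0.54 ± 0.80. Among tested colon epithelium markers the differences of smallest p were those of Muc2 (0.16 ± 0.11), Krt20 (0.20 ± 0.15), Lgr5 (-0.16 ± 0.26) and Krt18 (-0.07 ± 0.12).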

How the data were processed

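Each of 6 arrays measured 1 mouse. The deposited scanner files give a processed intensity per spot, background-subtracted by Agilent Feature Extraction (11.5.1.1 per the file headers, 10.7 per the submitters' processing notes), with no scaling across arrays. In the deposited series table, 99.7% of intensities matched the scanner files to 0.01 on the log2 scale, so its scale and direction are known, and its column medians were 231, 234, 247, 259, 228 and 241 (wild-type, then knockout mice). The array design names the build mm9. Accessions were matched to symbols through a RefSeq table (GRCm38.p6), which named 33767 of 56605 probes.

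Log2 intensity minus the 75th percentile of the array was used. Control spots (3671 of 62976) and marked spots (uneven, outlying among replicates, or set manually) were dropped, and 0 spots were saturated. A probe was tested when well above background on at least 3 arrays with at least 2 unmarked arrays a group, and the probe with the highest mean stood for a gene. Genotypes were compared with limma 3.58.1 (lmFit, eBayes, two-sided, no covariate) in R 4.3.3, adjusting by Benjamini-Hochberg over 27916 features, of which 58 passed. The script was tested on simulated data. Genes were given array by array when the unadjusted p was under 0.05 or the log2 difference at least 0.5, as were Hoxa13, Hoxb13 and Hoxd10 to Hoxd13, and of each of 13 lists up to 4 genes of smallest p; some list genes are not reported here. The members and lists were chosen with earlier results of these data known. The alternatives varied background correction, normalization, filters, marked spots, probe rule, variance model, blocks and left-out mice. The files hold a median and no mean spot signal, so the normexp alternative (offset 50) used medians. The number of arrays limits the precision.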

Additional observations from a re-analysis of the deposited data

How the results depend on the processing

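No Hox gene passed under any alternative run, and Hoxb4, Hoxb6, Hoxb8, Hoxb13, Hoxd3, Hoxd4, Hoxd8, Hoxd10 and Hoxd11 kept their sign in all 18. Hoxb3 turned to -0.043 with marked spots kept and to -0.038 with the deposited series table, since both bring in its brighter probe. Hoxd12 turned to 0.069 with the slide column as a block and to 0.18 without wild-type 3. Wild-type 3 and knockout 3 each lay alone in a column, so the block leaves the difference within the 4 closely numbered mice, which was 0.069. The count of all features called was 58, and became 100 with normexp background, 35 with no filter on dim probes, 33 when detection on all arrays was required, 106 with trend and robust variance, 103 with array weights and 216 with the slide column as a block. Leaving out 1 mouse gave 8 to 91. With no filter, which adds 9 dim Hox genes, the Hox median became 0.14 over 36 genes and that of paralogs 9 to 13 became -0.16. Leaving out 1 mouse gave Hox medians of -0.16 to -0.026, and of -0.33 to -0.21 for paralogs 9 to 13. The count of Hox genes at an unadjusted limma p under 0.05 was 11 of 27 with trend and robust variance and 11 of 27 with the animal number as a block. It was 0 to 11 without 1 mouse. The shares of all features at that p are not given for these settings. Medians without 1 mouse ran from -0.42 to -0.20 in HoxA and from 0.24 to 0.60 in HoxB. The HoxD median ran from -0.36 to 0.18. The labels give no replicate numbers shared by the genotypes, so none was used as a block, and the slide column and the animal number were fitted as blocks in their place. Normexp, quantile and array median scaling moved the median of all features from -0.06 to -0.04, -0.03 and -0.01. Low signal limits Hoxd9 and the 9 dim genes. It also limits Hoxb3, Hoxa4 and Hoxc9, which were detected on all arrays but at mean wild-type levels of -5.47, -5.24 and -6.10. That of Hoxd9 was -5.47. The difference of Hoxb3 fell from 0.38 to 0.11 with normexp background.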

Other observations

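Non-coding transcripts from the same clusters were set aside by the choice of members and are given here as values, after they had been seen. Hoxb5os, an opposite-strand transcript of HoxB, had 2 probes that disagreed. The first gave levels of -3.32, -3.16 and -2.08 in wild-type and of -2.24, -1.50 and -1.54 in knockout mice, a difference of 1.10 ± 0.36. Its other probe gave 0.04 ± 0.12. In the first probe wild-type 3 lay among the knockouts, as it did in Hoxb8. Hottip, a transcript at the posterior end of HoxA, gave levels of 0.26, 0.31 and -0.95 in wild-type and of -0.38, -0.41 and -0.77 in knockout mice, and wild-type 3 was the lowest of the 6. Hoxa11os gave 2.65, 2.59 and 1.85 in wild-type and 2.15, 2.02 and 1.69 in knockout mice. The differences of these 2 HoxA transcripts were -0.39 ± 0.34 and -0.41 ± 0.24, and Hoxaas3 gave -0.13 ± 0.18. Hoxd3os1 was not well above background on any array.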
